A study of Homo sapiens with 6 samples.

Results

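The genes described here encode 45 proteins of the cytosolic large (60S) ribosomal subunit, named RPL or RPLP. They were chosen by their symbols, as protein-coding genes whose Ensembl ID carries the listed name, with pseudogenes left out, and all 45 were found among the 60892 rows of the deposited table. The cells were BEAS-2B, a transformed line from human bronchial epithelium labelled wild type, and each group had 3 RNA sequencing libraries. The ZQ group was kept for 24 hours with ZQ (Zhenqi Granules, a herbal preparation) at 10 mg/mL, and the control group for the same time with medium alone. Cells of both groups then met methicillin-resistant Staphylococcus aureus (MRSA) for 2 hours at 1 bacterium per cell. No uninfected group is part of the comparison, and every library comes from this 1 cell line. The labels do not say that libraries of a group were separate cultures, and the p-values therefore cover the spread between libraries, which may be technical.

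Large-subunit proteins are made in the cytosol, carried into the nucleolus and assembled there on ribosomal RNA into the particle that joins amino acids and lets the growing chain leave through a tunnel. Their mRNAs belong to the most abundant of a dividing cell and typically start with a C followed by further pyrimidines, the 5′ terminal oligopyrimidine (5′TOP) tract. Through this tract the kinase mTOR and the RNA-binding protein LARP1 control translation and stability of these mRNAs together, and stress that lowers mTOR activity is known to take them out of polysomes.

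The starts of several members are shown because the shared tract is the sequence feature that the choice of members did not use. Each line holds 15 bases before the annotated RefSeq start and 15 from it on, 5′ to 3′ on the gene's strand, and capitals mark an unbroken run of C and T that opens with C at the start base. Coordinates are of GRCh38.p14. The first 6 had large increases with ZQ, RPLP0 is among the most counted members, and RPL3 and RPL4 are among those with small increases.
RPL28, chr19:55385917-55385946, plus strand: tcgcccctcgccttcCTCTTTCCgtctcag
RPL22, chr1:6199581-6199610, minus strand: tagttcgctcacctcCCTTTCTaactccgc
RPL12, chr9:127451392-127451421, minus strand: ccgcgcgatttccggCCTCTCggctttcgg
RPL26, chr17:8383179-8383208, minus strand: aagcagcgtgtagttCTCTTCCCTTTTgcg
RPL29, chr3:51995881-51995910, minus strand: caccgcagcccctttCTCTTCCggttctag
RPL14, chr3:40457324-40457353, plus strand: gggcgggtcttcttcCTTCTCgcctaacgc
RPLP0, chr12:120201097-120201126, minus strand: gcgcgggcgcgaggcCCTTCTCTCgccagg
RPL3, chr22:39319609-39319638, minus strand: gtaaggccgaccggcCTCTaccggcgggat
RPL4, chr15:66504841-66504870, minus strand: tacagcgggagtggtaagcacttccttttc

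A tract of at least 5 pyrimidines was found at an annotated start of 28 of the 38 members that the RefSeq start table holds, which is 73.7%. It stood at 5.14% of all 27305 genes in that table and at 4.07% of all 35116 windows. RPL5, RPL7, RPL8, RPL23, RPL23A, RPL30 and RPL37 were not matched and are named only. A match describes the letters at the annotated start on the gene's strand, and no match says only that they are not there: in RPL4 a pyrimidine run lies a few bases further on.

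Large-subunit mRNAs were higher with ZQ nearly throughout. Of the 45 members, 43 were higher in ZQ cells than in control cells and 0 were lower, with folds of 1.46 to 3.76 and a median fold of 2.5 among the 43. Over all 12994 genes tested, 19.3% were higher and 19.0% lower by the same rule, edgeR's quasi-likelihood test with a Benjamini-Hochberg adjusted p under 0.05. The other 2 members, RPL36A and RPL17, had few counts and no call. All 45 passed the filter on low counts. Levels are given as CPM, the count scaled to the size of its library and by trimmed mean of M values (TMM) factors, and changes as log2 of ZQ over control. The median log2 change of the 45 members was 1.32, with an interquartile range of 1.08 to 1.48, against 0.03 over all tested genes. In 43 members the ZQ and control libraries did not overlap, where 25.4% of all tested genes were higher without overlap. In the lower direction 0 members had an unadjusted p below 0.05. DESeq2 called 43 members higher and 0 lower, where it called 23.8% and 19.9% of all tested genes, and limma-voom called 43 and 0, where it called 18.6% and 19.3%.

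**Figure D1:**
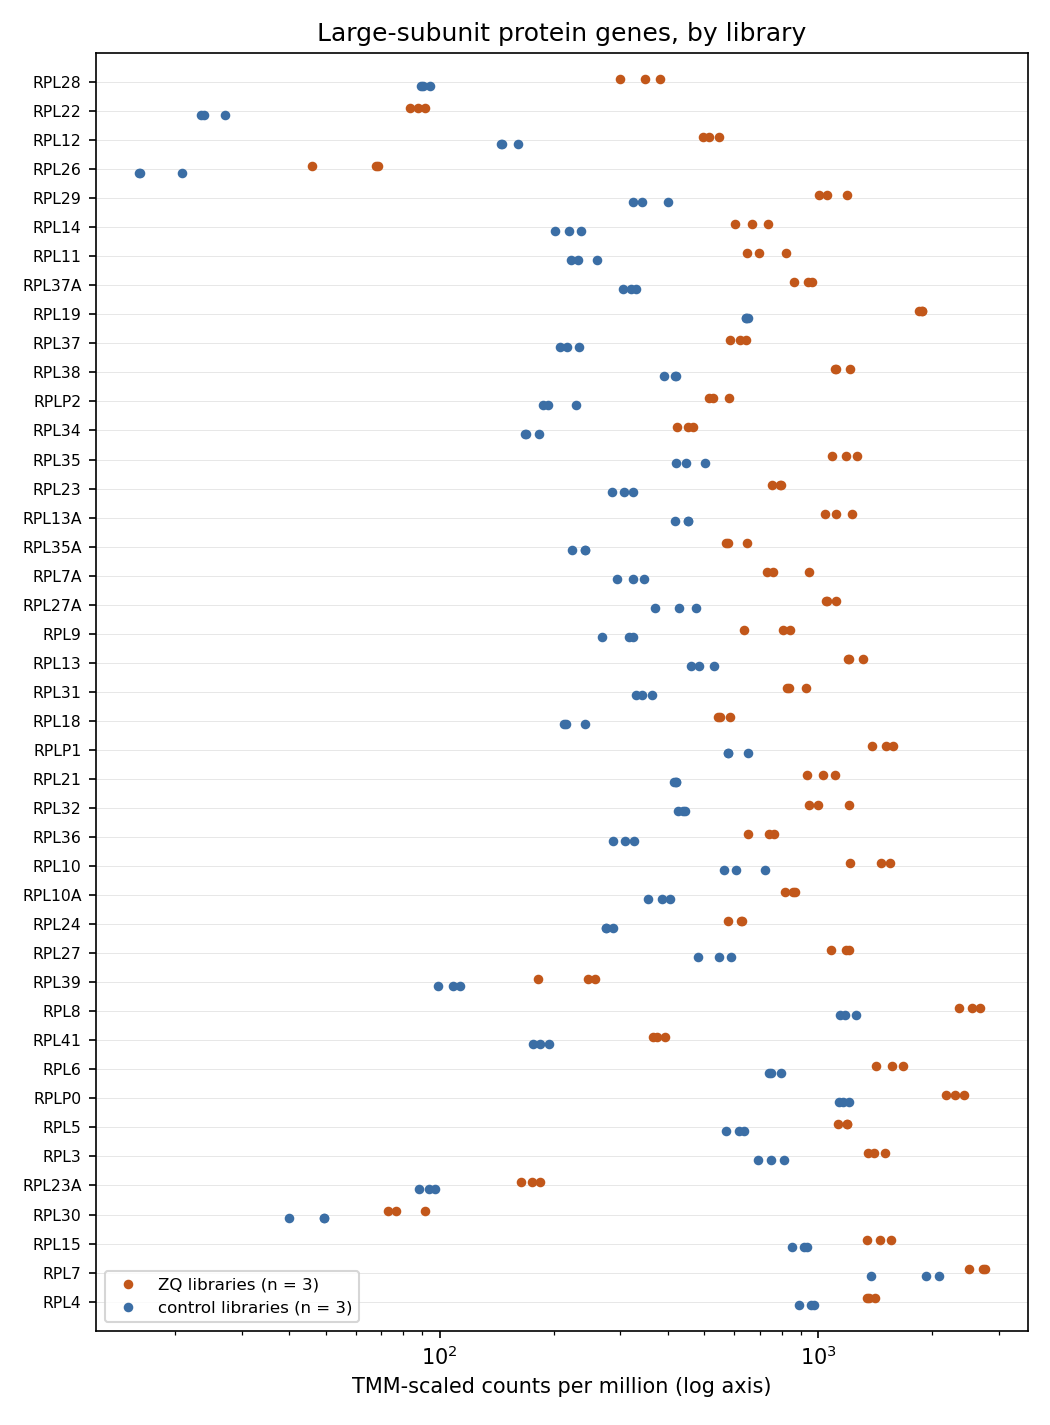
CPM (TMM-scaled) (log axis) of the 43 members that passed the test, 1 point per library, ZQ libraries (n = 3) drawn above control libraries (n = 3) on each line. Members are ordered by log2 change, with RPL28 at the top and RPL4 at the bottom, and on each line the ZQ points lie to the right of the control points.

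Other genes above a floor of abundance gave a further background, which was not matched to the members' levels. Among the 3720 tested genes outside the list that were at least as abundant as the least abundant member called, with a mean of 39.25 CPM or more, 15.5% were higher and 39.7% lower with ZQ, and their median log2 change was -0.43. The members' difference from these genes was not tested.

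The libraries themselves differed between groups. ZQ libraries held 2064566 to 2451746 counts and control libraries 11665967 to 14699677. Mitochondrially encoded transcripts made up 39.57% ± 1.135 of the ZQ and 8.741% ± 1.568 of the control libraries' counts (SD, n = 3 each). The biological coefficient of variation, the spread between replicates beyond counting error, was 0.522 among ZQ and 0.265 among control libraries. Since expression is relative to each library, more mRNA of these genes per cell and less of other mRNA cannot be told apart, nor can fewer cells of a type and less RNA per cell. The epithelial keratins KRT8 and KRT18 averaged 673.6 and 683.7 CPM in ZQ cells, and 1591 and 690.2 CPM in control cells, while KRT7 and KRT17 averaged 470.6 and 107.9 CPM in ZQ cells, and 153.7 and 71.64 CPM in control cells. Of these 4 keratins KRT8 was lower and KRT7 higher by edgeR's test, and the others did not pass. KRT19 had 0, 5 and 2 counts in ZQ libraries and 81, 102 and 75 in control libraries. Its log2 change was -2.235, without overlap between groups (edgeR adjusted p = 0.0561). EPCAM had 13 counts in all ZQ libraries together and 45 in control libraries, a log2 change of 1.085 (edgeR adjusted p = 0.288). KRT5 and CDH1, markers of basal cells and of epithelial junctions, had 3 and 10 counts in all ZQ libraries together and 0 and 6 in control libraries. The summed level of 8 epithelial markers was 1770 to 2090 CPM in ZQ and 1880 to 3380 CPM in control libraries. That of 4 fibroblast markers was 98.2 to 133 CPM in ZQ and 302 to 587 CPM in control libraries, nearly all of it COL1A1, and that of 5 leukocyte markers was 2.17 to 5.53 CPM in ZQ and 0 to 0.813 CPM in control libraries, with CD68 at 0 in all. The part of these differences in the members' rise was not tested.

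The members took a larger share of the sequenced RNA with ZQ. They held 3.823, 3.485 and 3.549% of all counts in the ZQ libraries, against 2.158, 2.202 and 2.104% in the control libraries, a ratio of means of 1.68. The lowest ZQ library was above the highest control library. Counted against nuclear genes alone, without the mitochondrial genome, the share was 5.986% ± 0.1928 in ZQ and 2.361% ± 0.01744 in control libraries (SD, n = 3 each), a ratio of 2.54. For such single values 3 against 3 libraries cannot give an exact permutation p below 0.1.

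**Figure D2:**
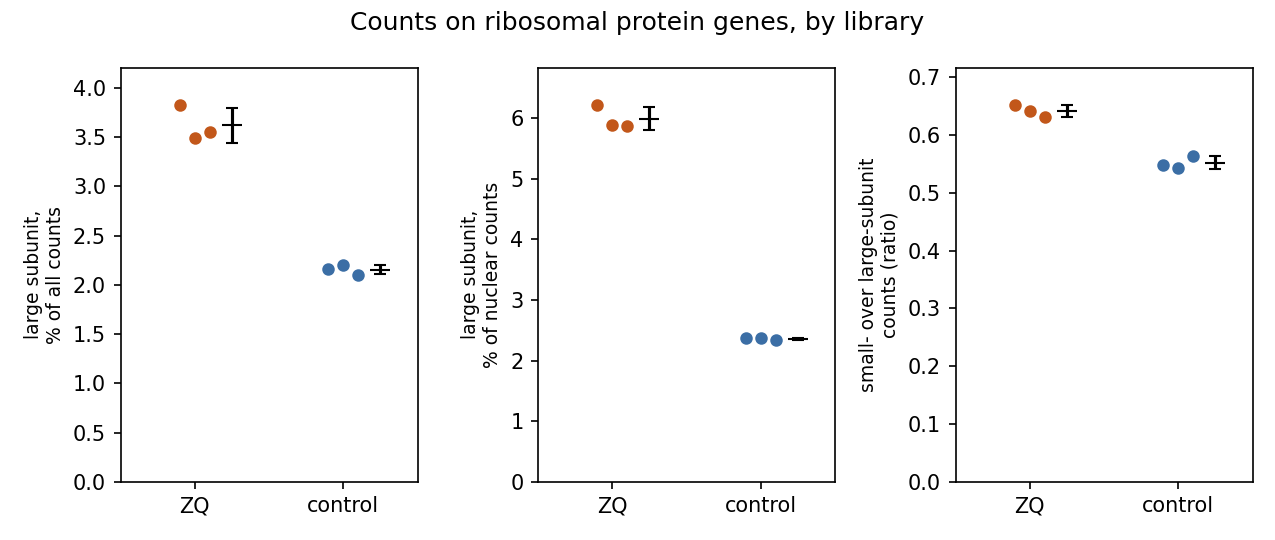
Share of counts on the 45 large-subunit genes among all counts and among counts of nuclear genes, in percent, and the ratio of small-subunit to large-subunit counts, with ZQ left of control. Points are libraries (n = 3 per group), bars are means ± SD and all axes start at 0. In each panel the 3 ZQ libraries lie above the 3 control libraries.

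The scaling of the libraries set the size of the rise and left its direction. Scaled by library totals alone, 39 members were higher and 0 lower, where 13.5% and 27.6% of all tested genes were, and their median log2 change was 0.92. With upper-quartile scaling 43 were higher and 0 lower, where 29.0% and 12.4% of all tested genes were, with a median of 1.77. The distance of the members' median from that of all tested genes was 1.29 in each of these 3 scalings. Such scalings move all genes by nearly the same step, so this distance could hardly change. It was 0.68 with offsets for GC content and transcript length. Without a low-count filter, which lets in genes of few counts, it was -0.74.

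RPL5 and RPL11 carry the 5S ribosomal RNA into the subunit and, when free, bind the p53 regulator MDM2. RPL5 stood at 1192, 1188 and 1126 CPM in the ZQ libraries and at 634.9, 571.2 and 617.8 CPM in the control libraries. Its log2 change was 0.94 ± 0.11 (SE; adjusted p = 0.000167 by edgeR). RPL11 stood at 819.8, 645.8 and 694.7 CPM with ZQ, against 232, 259.6 and 221.6 CPM in control libraries, a log2 change of 1.60 ± 0.14 (SE; adjusted p = 3.86e-05 by edgeR). Both partners of the 5S particle rose without overlap between groups, RPL11 by 3.03-fold and RPL5 by 1.92-fold.

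The stalk recruits the translation factors that split GTP. RPLP0, its base protein, had 2289, 2425 and 2165 CPM in ZQ libraries and 1163, 1202 and 1135 CPM in control libraries, a log2 change of 0.97 ± 0.10 (SE; adjusted p = 8.02e-05 by edgeR). RPLP1, an acidic arm protein, had 1571, 1503 and 1388 CPM with ZQ and 577.8, 652.7 and 577.1 CPM in control libraries, a log2 change of 1.30 ± 0.11 (SE; adjusted p = 3.23e-05 by edgeR). RPLP2, its partner in the arms, had 579.7, 527.4 and 514.5 CPM with ZQ and 186.8, 228.3 and 193 CPM in control libraries, a log2 change of 1.42 ± 0.14 (SE; adjusted p = 7.81e-05 by edgeR). The ZQ libraries lay above the control libraries in all 3. With GC and length offsets RPLP1 at 0.29 (edgeR adjusted p = 0.0672) lost its call and RPLP2 turned to -0.27 (edgeR adjusted p = 0.0979). RPL12, which binds the ribosomal RNA at the foot of the stalk, was at 512.8, 496.8 and 546 CPM in ZQ and 145.5, 160.6 and 145.6 CPM in control libraries. It rose 3.44-fold, with a log2 change of 1.78 ± 0.14 (SE) at an edgeR adjusted p of 1.49e-05, and no ZQ library came near a control library. With GC and length offsets the log2 change of RPL12 was 0.92 (edgeR adjusted p = 0.000785).

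All 4 members listed for the peptidyl transferase centre, where peptide bonds form, and the L1 stalk rose, with log2 changes of 0.92 to 1.15. RPL8, a core protein next to the centre, had 2543, 2672 and 2348 CPM in ZQ libraries and 1141, 1256 and 1176 CPM in control libraries. Its log2 change was 1.08 ± 0.10 (SE; adjusted p = 5.09e-05 by edgeR), but with offsets for GC content and length it was called lower, at -0.37 (edgeR adjusted p = 0.0267). RPL3, which reaches towards the same centre, had 1352, 1494 and 1404 CPM with ZQ and 749.4, 809.4 and 694 CPM in control libraries, a log2 change of 0.92 ± 0.11 (SE; adjusted p = 0.000224 by edgeR). In both genes the groups were apart. RPL10, added late to the subunit near the P site, and RPL10A of the mobile L1 stalk had log2 changes of 1.15 and 1.15, with edgeR adjusted p of 0.000217 and 9.15e-05.

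For the wall and rim of the exit tunnel 9 members were listed, and 8 of them rose. RPL4, whose loop narrows the tunnel, had the smallest rise of the 43: it stood at 1358, 1410 and 1342 CPM in ZQ libraries and at 953.5, 888.1 and 972.7 CPM in control libraries. Its log2 change was 0.55 ± 0.10 (SE; adjusted p = 0.00212 by edgeR), a fold of 1.46, still without overlap. RPL23A, which docks factors at the tunnel exit, had 164.1, 184.4 and 175.7 CPM with ZQ and 93.93, 88.26 and 97.32 CPM in control libraries, a log2 change of 0.91 ± 0.17 (SE; adjusted p = 0.00196 by edgeR). Its groups did not overlap either, but its call was lost with GC and length offsets (0.32, edgeR adjusted p = 0.153).

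Near the tunnel exit, RPL22, which is also known to bind other cellular and viral RNAs, was at 83.66, 87.67 and 91.19 CPM in ZQ libraries and at 27.09, 23.36 and 23.89 CPM in control libraries. Its log2 change was 1.82 ± 0.25 (SE; adjusted p = 0.000401 by edgeR). RPL26, which is also known to bind the mRNA of p53, had 67.91, 45.99 and 68.53 CPM with ZQ and 20.86, 16.17 and 16.03 CPM in control libraries, a log2 change of 1.78 ± 0.32 (SE; adjusted p = 0.00153 by edgeR). RPL22 was even within each group, while the second ZQ library was low for RPL26 and yet more than 2 times the highest control library. RPL19, RPL31, RPL35 and RPL39, the other tunnel members that rose, had log2 changes of 1.53, 1.32, 1.37 and 1.09, and RPL35 turned to -0.069 with GC and length offsets.

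The 3 members listed here for bridges to the small subunit all rose. RPL30, which in mammals also binds the element that recodes UGA to selenocysteine, had 91.27, 72.82 and 76.82 CPM in ZQ libraries and 49.37, 49.48 and 40 CPM in control libraries. Its log2 change of 0.79 ± 0.24 (SE; adjusted p = 0.0239 by edgeR) had the largest adjusted p of the 43, and its call was lost in 5 of 16 alternative settings, among them those without ZQ replicate 1, where it was 0.60, and without control replicate 3, where it was 0.86. RPL24 and the very short peptide RPL41 had log2 changes of 1.13 and 1.03.

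Among the remaining members, RPL28, a protein with no bacterial counterpart, had the largest rise that passed the test. It was at 382.5, 299.9 and 348.7 CPM in ZQ libraries and at 89.32, 94.19 and 90.3 CPM in control libraries, a fold of 3.76 and a log2 change of 1.91 ± 0.16 (SE; adjusted p = 2.35e-05 by edgeR). The lowest ZQ library was over 3 times the highest control library. The gene lies at chr19:55385345-55403250 on the plus strand (GRCh38, GENCODE release 29). RPL29, also described as a heparin-binding protein, had 1054, 1192 and 1006 CPM with ZQ and 341.2, 401.2 and 323.4 CPM in control libraries, a log2 change of 1.61 ± 0.13 (SE; adjusted p = 2.4e-05 by edgeR). RPL14, a further protein without a bacterial counterpart, had 736.1, 602.2 and 667 CPM with ZQ and 235.9, 201.7 and 219.8 CPM in control libraries, a log2 change of 1.61 ± 0.14 (SE; adjusted p = 3.21e-05 by edgeR). For both the groups stood well apart. With GC and length offsets RPL29 was at 0.39 (edgeR adjusted p = 0.0227) and RPL14 at 1.29 (edgeR adjusted p = 8.62e-05).

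RPL7 and RPL15 rose least in this set. RPL7 had the most counts of all members, with 2755, 2492 and 2720 CPM in ZQ libraries and 1918, 1374 and 2082 CPM in control libraries. Its log2 change was 0.57 ± 0.15 (SE; adjusted p = 0.0117 by edgeR). The second control library was low and the groups did not overlap, but the call was lost in 4 of 16 alternatives, among them those without ZQ replicate 1 (0.45) and without ZQ replicate 3 (0.46). RPL15, a core protein that binds deep in the ribosomal RNA, had 1455, 1558 and 1341 CPM with ZQ and 917.7, 929.8 and 849.4 CPM in control libraries, a log2 change of 0.69 ± 0.11 (SE; adjusted p = 0.000808 by edgeR), with every ZQ library above every control library. By library totals RPL4, RPL7, RPL15 and RPL30 no longer passed, at 0.15, 0.17, 0.29 and 0.39.

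RPL36A and RPL17 were nearly empty in every library. RPL36A, which contacts tRNA at the exit site, had 22, 1 and 0 counts in ZQ libraries and 20, 4 and 18 in control libraries, and a log2 change of 2.06 ± 1.23 (SE; adjusted p = 0.211 by edgeR). RPL17, of the tunnel wall, had 14, 1 and 4 counts in ZQ and 36, 33 and 28 in control libraries, and a log2 change of 0.65 ± 0.81 (SE; adjusted p = 0.557 by edgeR). In both genes the groups overlapped and ZQ replicate 1 held most ZQ counts: without it the values were -1.98 and -0.81. Both share exon bases with an annotated readthrough gene on the same strand, 8.4% of RPL36A with RPL36A-HNRNPH2 and 24.8% of RPL17 with RPL17-C18orf32, and both readthrough rows had 0 counts. Rows of their pseudogenes held more counts than the genes themselves, 757% of the own count for RPL36A and 1170% for RPL17 in ZQ libraries, and 1160% and 768% in control libraries. The part of read assignment in these low counts was not tested.

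The other 25 members all rose, by log2 changes of 1.02 for RPL6 to 1.53 for RPL37A, with edgeR adjusted p of at most 0.00115. Their means were 228.1 to 1865 CPM in ZQ and 106.9 to 762.1 CPM in control cells. The median was 1.15 in the 18 members with a bacterial counterpart, of which 17 were called, and 1.33 in the 27 without one, of which 26 were called. Medians by listed place were 1.27 for the 5S particle, 1.36 for the stalk and 1.11 around the peptidyl transferase centre and L1 stalk. They were 1.32 for the tunnel, 1.03 for the bridges and 1.34 for the rest, and these differences between places were not tested.

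**Figure D3:**
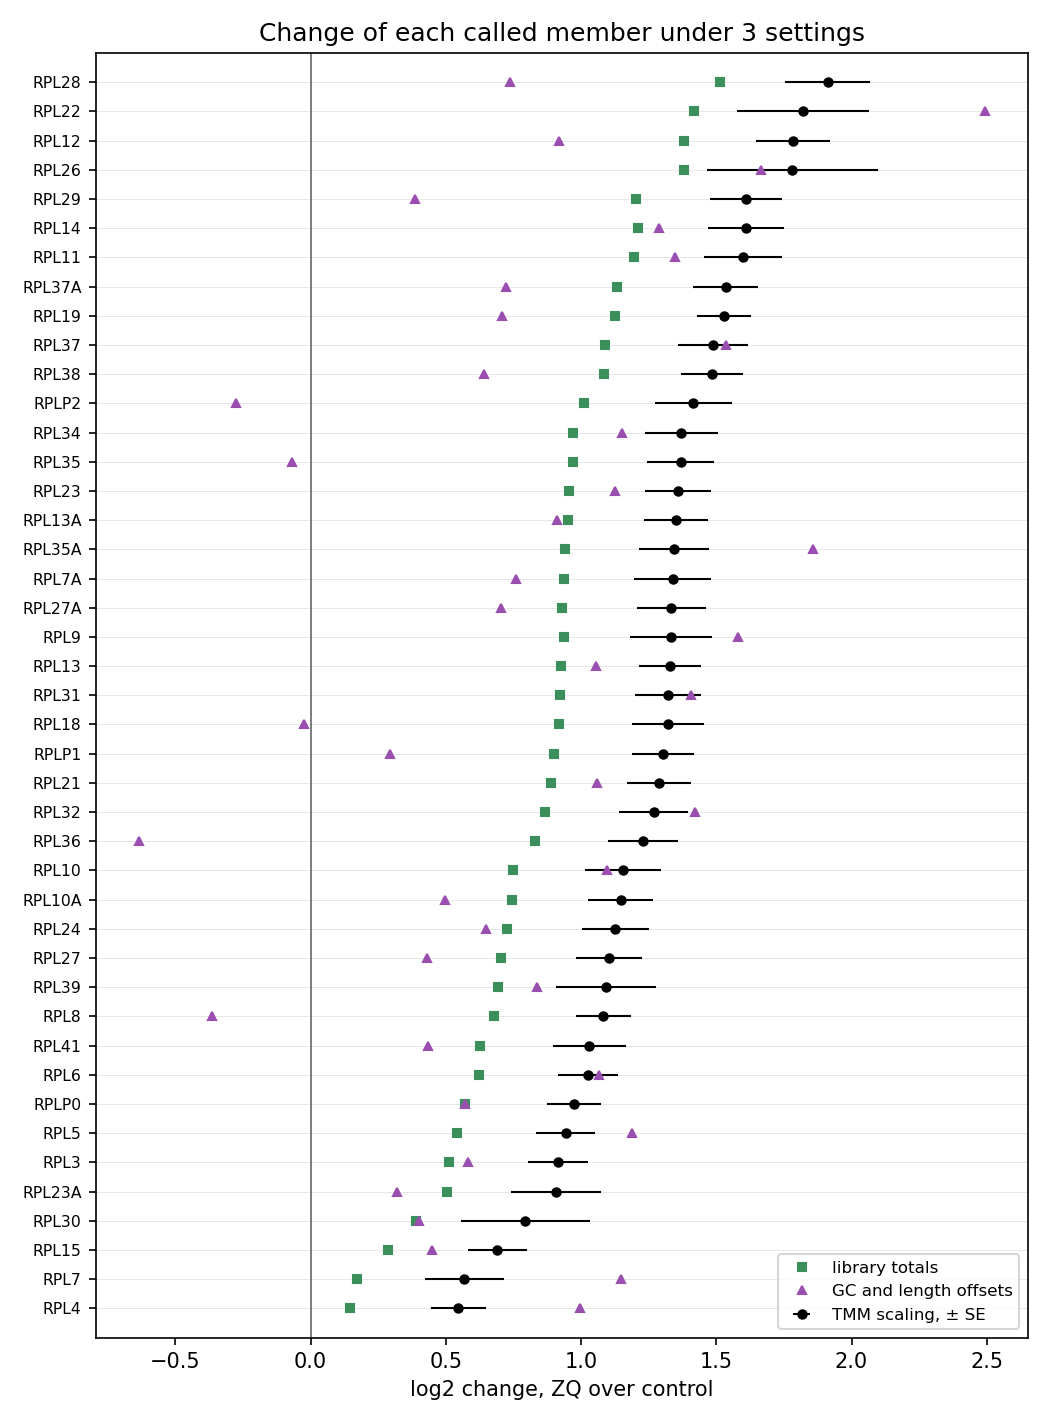
Log2 change, ZQ over control, of the 43 members that passed the test, under TMM scaling with its SE (black circles), by library totals (green squares) and with offsets for GC content and transcript length (purple triangles). The TMM values run from 0.55 for RPL4 to 1.91 for RPL28, the library totals lie left of them by a near constant step, and the offsets move GC-rich members such as RPL36 and RPL8 below 0.

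Offsets for GC content and transcript length moved the members apart, whereas the scalings moved them by a near constant step. These offsets were smooth curves fitted, for each library, to the deviations of tested genes from their own means over the 6 libraries. Only tested genes with known GC content and length entered the curves. With the offsets the members' median log2 change was 0.76. Of the members 35 were higher and 2 lower, where 17.8% and 14.7% of all tested genes were. The lower ones were RPL36 at -0.64 (edgeR adjusted p = 0.00724) and RPL8 at -0.37 (edgeR adjusted p = 0.0267), which have the GC contents 62.2% and 62.4%. RPLP2, RPL35 and RPL18 stood at -0.27, -0.069 and -0.026 and did not pass. Conversely RPL7 and RPL4 stood at 1.15 and 0.99. Members are short, with a median transcript length of 726 bases against 2665 for tested protein-coding genes, and their median GC content was 49.6% against 49.0%. Over the 43 members that passed, Spearman's rho of the log2 change was 0.104 with GC content and -0.223 with length, and after the offsets -0.708 and 0.407, a description over genes that share the same 6 libraries.

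The counts were spread differently over the large-subunit pool in the 2 groups. RPL7 took 6.359, 6.088 and 6.718% of the members' counts in ZQ libraries and 10.16, 7.375 and 11.11% in control libraries. RPL4 took 3.135, 3.444 and 3.315% with ZQ and 5.053, 4.768 and 5.192% in control libraries. RPL28 took 0.883, 0.733 and 0.861% with ZQ and 0.473, 0.506 and 0.482% in control libraries. RPL7 and RPL4 had a smaller and RPL28 a larger share in every ZQ library than in any control library, on counts that also depend on transcript length. The 5 most counted members of each library together took 25.7 to 26.9% of the pool in ZQ and 30.3 to 33.2% in control libraries. Per kilobase of transcript, the SD of log2 CPM over the 43 members was 1.17 to 1.24 in ZQ and 1.27 to 1.33 in control libraries, so levels were somewhat more even with ZQ. Spearman's rho of the log2 change with the control level was -0.498 over these members, a description in which both measures share the control counts, and -0.173 with GC and length offsets. With those offsets the order of the named members turned: RPL7 and RPL4 stood at 1.15 and 0.99, above the members' median of 0.76, and RPL28 at 0.74, below it. RPL8, next to RPL7 in counts, took 5.87, 6.527 and 5.798% of the pool in ZQ and 6.045, 6.743 and 6.277% in control libraries, and its groups overlapped.

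**Figure D4:**
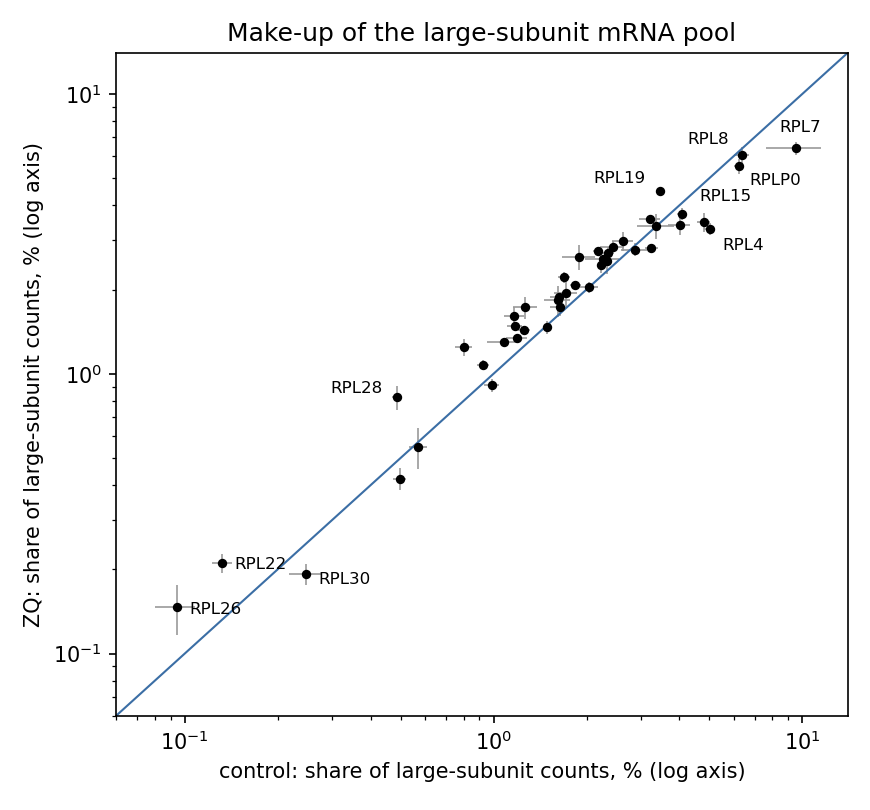
Share of each member in the counts of all 45 members, in percent on log axes, ZQ (vertical) against control (horizontal), for the 43 members that passed the test. Points are means and bars SD over 3 libraries, and the line marks equal shares. RPL7, RPL4 and RPL15 lie below the line, and RPL28, RPL22 and RPL26 above it.

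Members with a 5′TOP tract at an annotated start, as in the sequences of RPL28 and RPL22, showed a median log2 change of 1.35. Of these, 27 of 28 were called higher, where 19.3% of all tested genes were. The 10 members without one, RPL4 among them, had a median of 1.06, with 9 of 10 called higher. The member without a call was RPL36A among those with a tract and RPL17 among those without, both nearly empty. With GC and length offsets these medians were 0.80 and 0.66. The difference was not tested. The split follows the annotated start bases and the minimum run of 5. Among those without a match, RPL3 had a run of 4, and pyrimidine runs lay across a start of RPL19 and shortly after those of RPL9 and RPL10A.

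The small subunit moved with the large one. All 31 small-subunit genes tested were called higher, where 19.3% of all tested genes were. Their median log2 change of 1.33 was close to the 1.32 of the large subunit. RPS9, RPS12 and RPS2 rose most, with log2 changes of 2.41, 2.25 and 2.11, and RPS3A, RPS23 and RPS25 least, with 0.60, 0.76 and 0.99. RPS10, with 1 count in ZQ and 32 in control libraries, was too low to test. The small-subunit genes held 0.6514, 0.6417 and 0.6302 times as many counts as the large-subunit members in ZQ libraries, against 0.5485, 0.5425 and 0.5639 times in control libraries. The ratio was higher in each ZQ library than in any control library. With GC and length offsets 24 small-subunit genes were higher and 1 lower, where 17.8% and 14.7% of all tested genes were, with a median of 0.84.

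Paralogs of the members, some of which can take a member's place in the subunit, were mixed. RPL22L1, RPL39L and RPL36AL rose by 1.95, 1.11 and 0.64 on the log2 scale, while RPL26L1 at 0.42 (edgeR adjusted p = 0.0796) and RPL7L1 at 0.02 (edgeR adjusted p = 0.958) did not pass. RPL26 made up 19.8, 18.6 and 24.8% of the counts of RPL26 and RPL26L1 in ZQ libraries, against 11.0, 9.19 and 8.06% in control libraries, without overlap. The summed level of this pair was 343.3, 246.7 and 276.8 CPM in ZQ libraries and 189.8, 175.9 and 198.8 CPM in control libraries. RPL22 held 59.0 to 66.8% of its pair with RPL22L1 in ZQ and 64.0 to 66.6% in control libraries, and RPL39 held 67.2 to 69.2% and 66.8 to 69.7% of its pair with RPL39L, so the ranges of both pairs overlapped. Reads can be split between near-identical copies, and pseudogene rows of the members held 3.24% ± 0.2657 of the members' own counts in ZQ and 2.957% ± 0.1344 in control libraries (SD, n = 3 each). For RPL26 they reached 35.1% of the own count in ZQ and 59.1% in control libraries, for RPL23A 36.5% and 39.1%, and for RPL10 14.9% and 12.2%, so these 3 members' values are uncertain. RPL10 also shares 34.2% of its exon bases with DNASE1L1 on the other strand, which had 7 counts in ZQ and 183 in control libraries, and RPL36 shares 17.6% with HSD11B1L on its own strand, which had 12 and 72.

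Other mRNAs known for a 5′TOP tract were mixed. Of 18 tested, 9 were higher and 1 lower, or 50.0% and 5.56%, against 19.3% and 19.0% of all tested genes. Their median log2 change was 0.32. TPT1, which encodes the translationally controlled tumour protein, GAS5, a noncoding host of small nucleolar RNAs, and the elongation factor gene EEF1B2 rose most, by 2.25, 1.91 and 1.12. EIF3L, of initiation factor 3, was lower with a log2 change of -1.42, and PABPC1, which binds poly(A), and EIF3K had the smallest rises past the threshold, 0.35 and 0.73. By library totals the median was -0.08, with 6 higher and 4 lower, where 13.5% and 27.6% of all tested genes were. With GC and length offsets it was 0.93, with 12 higher and 2 lower, where 17.8% and 14.7% of all tested genes were. The members' count was not tested against this one.

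With TMM scaling, genes of factors that assemble the 60S subunit were called about as often as all tested genes. Of 39 tested, 7 were higher and 8 lower, or 17.9% and 20.5%, close to the 19.3% and 19.0% of all tested genes. Their median log2 change was -0.34, and 0.015 with GC and length offsets. With upper-quartile scaling it was 0.11, with 11 higher and 4 lower, where 29.0% and 12.4% of all tested genes were. By library totals it was -0.75, with 4 higher and 17 lower, where 13.5% and 27.6% of all tested genes were. BOP1, a partner in early ribosomal RNA processing, rose by 2.19, the helicase gene DDX51 by 2.12 and REXO4 by 1.78. DDX51 rested on 12, 22 and 16 counts in ZQ libraries (edgeR adjusted p = 0.0188) and REXO4 on 68, 18 and 46 (edgeR adjusted p = 0.0256). NMD3, the adapter that exports the 60S subunit from the nucleus, had a log2 change of -1.62, ZNF622, a late cytoplasmic factor, one of -1.24 and the nucleolar GTPase gene GNL2 one of -1.19.

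Genes that control 5′TOP mRNAs were called 2 of 12 higher and 2 lower, which is 16.7% each and close to the 19.3% and 19.0% of all tested genes. With upper-quartile scaling 5 were higher and 1 lower, where 29.0% and 12.4% of all tested genes were. Their median log2 change was then 0.76, against 0.32 with TMM. With GC and length offsets 1 was higher and 2 lower, where 17.8% and 14.7% of all tested genes were, with a median of -0.34. EIF4EBP1, a translation repressor that mTOR inactivates, rose by 1.29 and TSC2, an inhibitor upstream of mTOR, by 1.89 on the log2 scale. TSC2 had uneven counts of 24, 94 and 24 in ZQ libraries, against 83, 114 and 94 in control libraries (edgeR adjusted p = 0.0234). RPS6KB1, the S6 kinase below mTOR, and RHEB, its activator, were lower with log2 changes of -2.28 and -0.89. LARP1 and MTOR had log2 changes of 0.24 (edgeR adjusted p = 0.384) and -0.44 (edgeR adjusted p = 0.476) and did not pass. These are mRNA levels and hold no measure of mTOR activity or of translation.

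**Figure D5:**
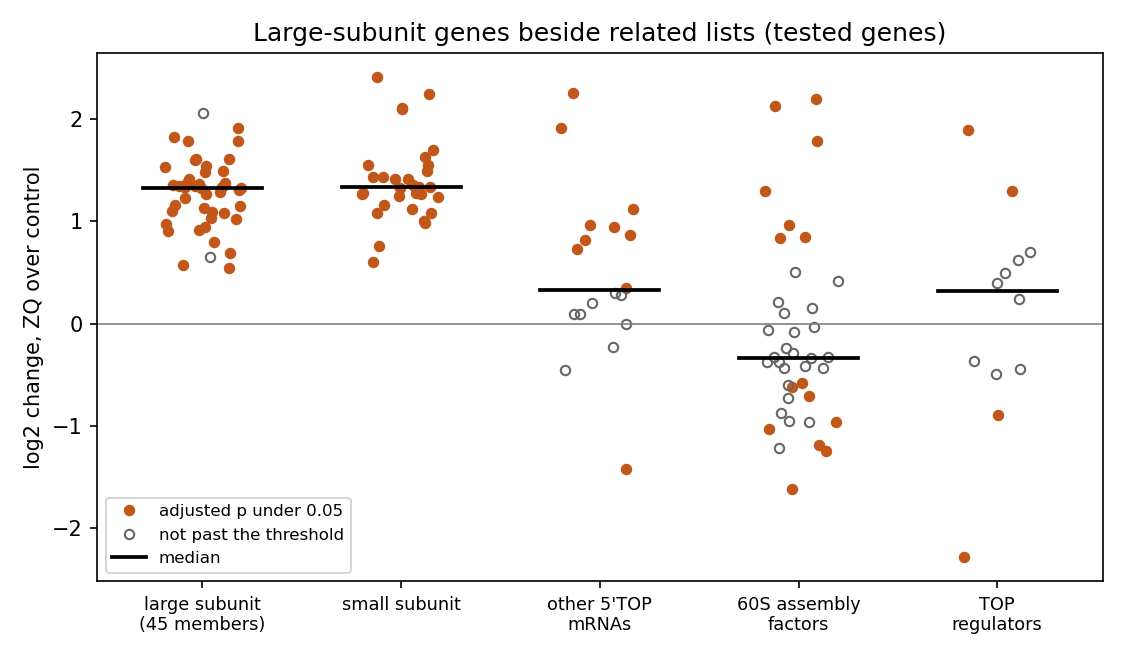
Log2 change, ZQ over control, of each tested gene in the large-subunit list and 4 related lists, with filled points for genes past the adjusted p of 0.05, open points for the others and a bar at the median. The large-subunit and small-subunit medians are 1.32 and 1.33, those of the other 5′TOP mRNAs and the regulators 0.32 each, and that of the 60S assembly factors -0.34.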

How the data were processed

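RNA of 6 BEAS-2B libraries was sequenced after TRIzol extraction, DNase treatment and library preparation with an NEBNext Ultra kit, per the labels' protocols. The authors deposited raw read counts per gene, not normalised. The submitters' processing notes name GRCh38 as build and Cufflinks 2.1.1 as a tool, without its role. The sources used here name no aligner, counter, annotation or strand setting, and reads on antisense or overlapping genes cannot be separated. Of 60892 rows 60652 matched a symbol, and 58396 had a GENCODE 29 entry, which gave positions, transcript length and GC content.

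Counts were tested with edgeR 4.0.16 in R 4.3.3: filterByExpr (minimum count 10, minimum total 15), TMM scaling, the quasi-likelihood F-test of ZQ over control on all 6 libraries, and Benjamini-Hochberg adjustment over 12994 genes at 0.05. The SE is the log2 change divided by the square root of F. CPM values are TMM-scaled. Alternatives used limma 3.58.1, DESeq2 1.42.0, mgcv 1.9.3 for the offsets, other scalings and filters, thinning of control libraries to 2200785 counts, each library left out and a replicate block. The test was checked on simulated data in which both groups had the same spread per gene. That check does not cover the unequal spread of ZQ and control libraries. In 1 library 1 count was worth 0.479 to 0.5526 CPM with ZQ and 0.05754 to 0.07633 CPM in control.

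The members and lists were chosen with earlier results of these data known. Named in full were the 8 highest and 8 lowest log2 changes, the 3 largest and 3 smallest counts, the 5S particle, the P proteins and any member with another call in more than 4 alternatives. Of the comparison lists, paralogs of the members were named, and of each other list the 3 highest and 3 lowest values past the threshold. LARP1 and MTOR were named for their role, after their values were seen. A few items of these lists are not reported here. Start sequences are from RefSeq (GRCh38.p14).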

Additional observations from a re-analysis of the deposited data

How the results depend on the processing

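Of the 43 members called higher, 32 had the same call in all 16 alternatives in which they were tested. The count of members higher ranged from 35, with offsets for GC content and length, to 43, and members were called lower only with those offsets, where 2 were. The median log2 change of the members, 1.32 with TMM, was 1.77 with upper-quartile scaling, 0.92 by library totals, 1.01 without a low-count filter, 0.76 with the offsets and 1.54 with control libraries thinned to the ZQ depth, and 1.16 to 1.48 with each library left out. Without the filter the median over all genes was 1.75, with genes of few counts included. Upper-quartile scaling and library totals moved the median over all genes to 0.48 and -0.37, with 3767 higher and 1611 lower, and 1752 higher and 3580 lower, against 2506 and 2472. With the offsets RPL36 (-0.64), RPL8 (-0.37), RPLP2 (-0.27), RPL35 (-0.069) and RPL18 (-0.026) changed sign, and RPLP1 (0.29), RPL23A (0.32) and RPL30 (0.40) lost their call. The cause was not tested. Without ZQ replicate 1 RPL36A (-1.98) and RPL17 (-0.81), which had no call, changed sign, as most of their ZQ counts lay in that library; with each ZQ library left out they ranged from -1.98 to 2.55 and from -0.81 to 1.09. Both had no test with a control library left out or control libraries thinned. The count of genes called, 4978, was 11603 without the filter, where 38214 genes were tested, and 2794 to 5407 with each library left out. It was lowest without control replicate 1, and 3040 without control replicate 3. The members' share of counts, 1.46 percentage points higher with ZQ, was 3.62 points higher among nuclear genes, 3.41 points higher without the 10 most abundant other genes, and 1.36 to 1.53 points higher with each library left out.

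Replicate numbers are shared by the groups, but the labels do not say that they pair libraries. Deviations of same-numbered libraries correlated at 0.009, 0.04 and 0.03, and those of differently numbered libraries at -0.03 to 0.009. All of these values are near 0 and cannot tell whether libraries were paired. With the number as a replicate block 43 members were higher and 0 lower, and their median log2 change was 1.32. Of all 12994 tested genes 4405 were called in that setting, 2032 higher and 2373 lower.

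Low counts limit RPL36A and RPL17, with 65 and 116 counts in all 6 libraries, and neither had a call at this depth.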

Other observations

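Counts on tissue-restricted paralogs of members were seen with ZQ. RPL3L, a paralog of RPL3 known from skeletal muscle and heart, had 5, 8 and 1 counts in the ZQ libraries and 0 in all control libraries, and RPL10L, a paralog known from testis of RPL10, had 0, 1 and 2 counts in ZQ libraries and 0 in control libraries. Neither was tested. ZQ libraries also had counts on more genes in spite of their lower depth, 23836 to 24713 against 19400 to 21141 in control libraries.

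Of 1083 pseudogene rows of the members 87 were tested, 26 were higher and 1 was lower, or 29.9% and 1.15% against 19.3% and 19.0% of all tested genes, with a median log2 change of 1.21. RPL7AP29 had 11, 22 and 4 counts in ZQ libraries and 0 in the control libraries. RPL12P14 and RPL29P31 had log2 changes of 2.59 and 2.45, and RPLP0P9 and RPLP0P6, with 1.25 and 0.99, the smallest rises past the threshold. RPL17P50 was lower, with 0, 1 and 0 counts in ZQ libraries and 26, 26 and 23 in control libraries. Processed pseudogenes are near copies of the mRNA, and how reads were shared between them and the genes was not tested.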
